A study of Homo sapiens with 6 samples.

Results

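SULF1 and 9 other genes of the heparan sulfate pathway, SULF2, NDST1, HS2ST1, HS6ST1, EXT1, EXT2, GPC1, SDC1 and SDC4, were followed across 6 RNA-seq libraries. They are 10 of the 61487 gene IDs in the deposited count table and were found there by matching Ensembl IDs to their symbols. SULF1 was chosen for its pattern, with no count in Control and counts in both ACK1 arms, so its values against Control are a description without a test. The other 9 genes were listed by symbol. All 10 passed the filter on low counts, SULF1 through the ACK1 arms alone.

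The libraries came from H2170, an established line grown from a human squamous carcinoma of the lung. IDRmut cells expressed ACK1 (IDRmut)-GFP, WT cells expressed ACK1 (WT)-GFP, and Control cells expressed GFP, with 2 libraries per group. ACK1, the product of TNK2, is a cytoplasmic tyrosine kinase, and the study asked which genes its condensates regulate. The sources used here do not give the residues changed in IDRmut, the promoter of the constructs, whether each line was a single clone or whether replicates were separate cultures. The p-values therefore cover the spread between these libraries alone, which may be technical.

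Heparan sulfate is a sugar chain built on core proteins at the cell surface and in the matrix. EXT1 and EXT2 lengthen the chain, and NDST1, HS2ST1 and HS6ST1 add sulfate groups at set positions, which create docking sites for growth factors such as FGFs, Wnts and VEGF. SULF1 and SULF2 are secreted or surface-bound endosulfatases that clip sulfates from finished chains, the same glucosamine O-sulfates that HS6ST1 adds, and so change which ligands bind.

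Library totals ran between 19128111 and 33540998 counts. Levels are given as CPM, the usual library-scaled counts, here after TMM scaling. TNK2 stood at 1762 and 1455 CPM in IDRmut, 3514 and 3613 CPM in WT, and 41.1 and 43.1 CPM in Control. The ACK1 transcript was thus lower in IDRmut than in WT, and the effect of the mutation and that of the transcript level cannot be told apart in any comparison of those arms. Of the 10 squamous markers of the labelled cell type, 9 were tested and 1 was under 1 CPM in every library. KRT14 lay between 608 and 1434 CPM and SOX2 between 233 and 351 CPM. The summed level of the 10 markers was 2993 to 3263 CPM in IDRmut, 2783 to 2813 CPM in WT and 4603 to 4611 CPM in Control. Against Control, 4 rose and 5 fell in IDRmut, and 2 rose and 6 fell in WT. Of 5 epithelial genes, EPCAM and CDH1 had 0 to 4 counts per library. KRT8, the highest, had 76.0 and 68.9 CPM in IDRmut, 28.8 and 27.6 CPM in WT, and 12.7 and 11.3 CPM in Control. Among the 3 tested, 2 rose in IDRmut, and 2 rose and 1 fell in WT. All 7 leukocyte markers were under 1 CPM in every library. The fibroblast gene COL1A2 lay between 666 and 910 CPM and the endothelial cadherin CDH5 between 39.2 and 216 CPM. Of the 8 endothelial markers, PECAM1, TIE1, CLDN5 and ERG were under 1 CPM in every library, and VWF, KDR and TEK were between 0.659 and 7.91 CPM.

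SULF1 was present in both ACK1 arms at like levels and had no read in Control. The gene (ENSG00000137573) lies on chromosome 8 from 69466624 to 69660915 (GRCh38, plus strand). It had 384 and 474 counts in IDRmut, 394 and 687 counts in WT, and 0 and 0 counts in Control. As levels these were 18.9 and 21.6 CPM in IDRmut, 19.3 and 20.1 CPM in WT, and 0 CPM in both Control libraries. The ACK1 arms overlapped each other, and both stood apart from Control. SULF1 averaged 20.2 ± 1.9 CPM in IDRmut and 19.7 ± 0.56 CPM in WT (SD, n = 2 each).

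Over each pair of libraries, SULF1 reached 20.3 CPM in IDRmut (95% exact Poisson interval 18.9 to 21.7) and 19.8 CPM in WT (18.6 to 21.0), intervals that cover counting error only. As the floor, 3 counts over both Control libraries were taken, or 0.0783 CPM. The pooled level was 259-fold that floor in IDRmut and 253-fold in WT, leaving aside the counting error of the arms. No test was made of these folds, since the gene was chosen by them. Between the arms, SULF1 differed by 0.03 ± 0.08 on the log2 scale (SE; 95% interval -0.14 to 0.21), with an adjusted p of 0.8 (quasi-likelihood test of edgeR, Benjamini-Hochberg). These are bulk libraries, so more RNA per cell and more cells with the transcript cannot be told apart.

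SULF1 is also made by fibroblasts, and the fibroblast markers were measured beside it. Of 11 such markers, 6 were under 1 CPM in every library. Their summed level was 930 to 991 CPM in IDRmut, 710 to 720 CPM in WT and 888 to 912 CPM in Control. Without COL1A2, the highest of them, the sum was 80.7 to 80.9 CPM in IDRmut, 43.9 to 46.3 CPM in WT and 68.0 to 72.7 CPM in Control. Among the 8 markers tested, 2 rose and none fell in IDRmut, and 1 rose and 2 fell in WT. COL1A1 rose with SULF1 in both arms, at 1.62 and 1.77 CPM in IDRmut, 1.76 and 1.43 CPM in WT, and 0.558 and 0.376 CPM in Control, with adjusted p of 3.3e-04 and 4.3e-04 (edgeR). THY1 rose in IDRmut, at 15.5 and 14.4 CPM in IDRmut, 7.94 and 8.51 CPM in WT, and 5.33 and 7.96 CPM in Control, with an adjusted p of 3.5e-06 (edgeR). COL1A2 and PDGFRA fell in WT. COL3A1, DCN, LUM, PDGFRB, FAP and POSTN were the 6 markers under 1 CPM, and the part of such cells in the SULF1 values was not tested.

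**Figure D1:**
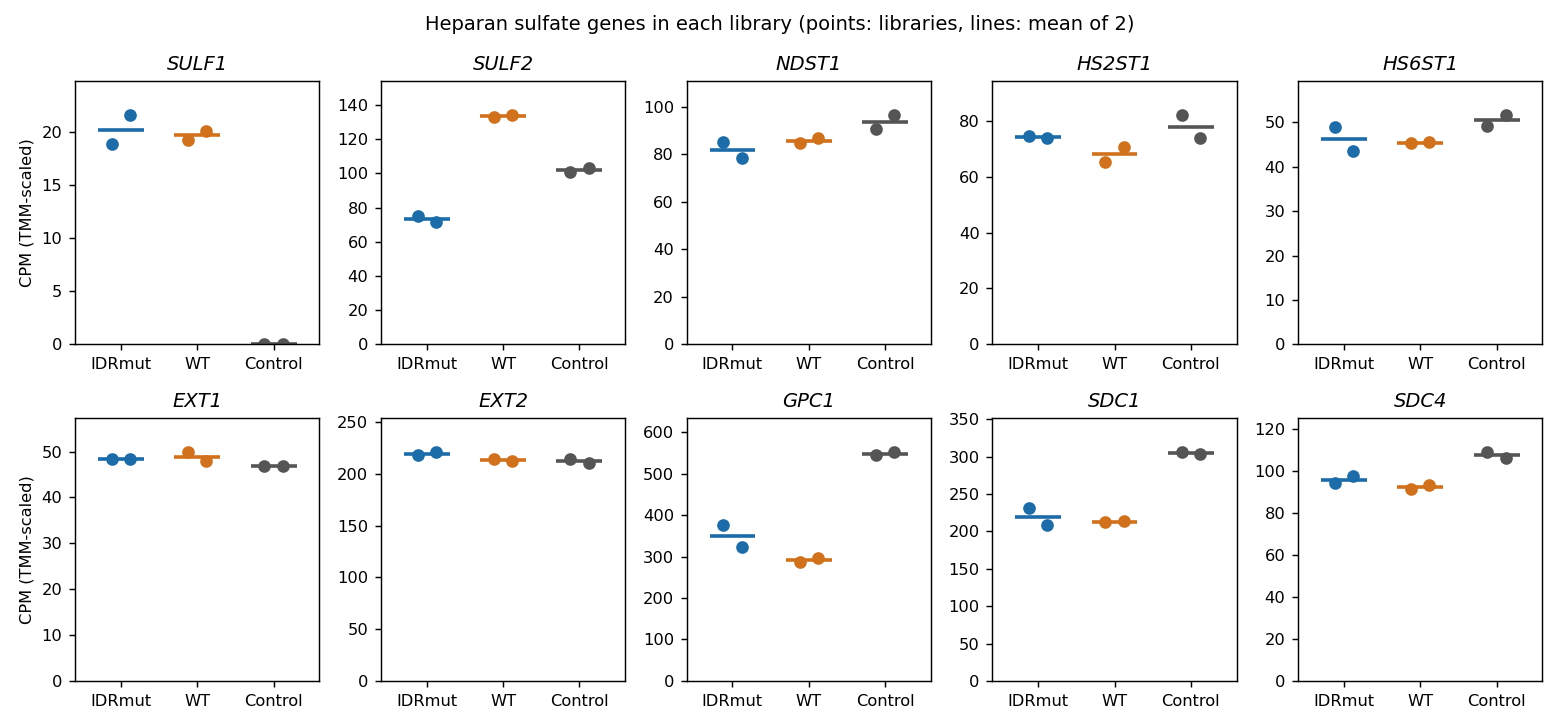
Level of each of the 10 heparan sulfate genes (y axis, CPM after TMM scaling, from 0) in IDRmut, WT and Control; each point is a library and each line the mean of 2. SULF1 is at 0 in Control, SULF2 is lowest in IDRmut and highest in WT, and GPC1 and SDC1 are highest in Control.

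SULF2, the second endosulfatase, fell in IDRmut and rose in WT. It had 75.2 and 71.8 CPM in IDRmut, 133 and 134 CPM in WT, and 101 and 103 CPM in Control. The 3 groups did not overlap, with Control between the ACK1 arms. The log2 fold change was -0.47 ± 0.05 (IDRmut over Control) and 0.39 ± 0.04 (WT over Control; SE), with adjusted p of 4.1e-07 and 1.3e-06 in the quasi-likelihood test of edgeR. IDRmut over WT gave -0.87 ± 0.04 with an adjusted p of 2.3e-10 in the same edgeR test (95% interval -0.96 to -0.77). Of the exon bases of SULF2, 4.63% are overlapped by another gene. The same fit called no other of the 9 genes in opposite directions against Control, and both comparisons share the Control libraries.

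Per length, SULF1 remained the smaller part of the endosulfatase transcripts. Levels of different genes are compared as CPM per kb of exon. SULF1 made up 15.1% and 17.5% of the sum of both genes in IDRmut, 9.29% and 9.57% in WT, and 0% in both Control libraries. Taken per length of the longest transcript, the share was 17.7% and 20.5% in IDRmut and 11.1% and 11.4% in WT. The share was thus larger in IDRmut, where SULF2 was lower. The sum of both was 13.3 and 13.1 CPM per kb in IDRmut, 22.1 and 22.3 in WT, and 15.2 and 15.5 in Control. With SULF1 included, the sum was still lower in both IDRmut libraries than in either Control library, and higher in both WT libraries.

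**Figure D2:**
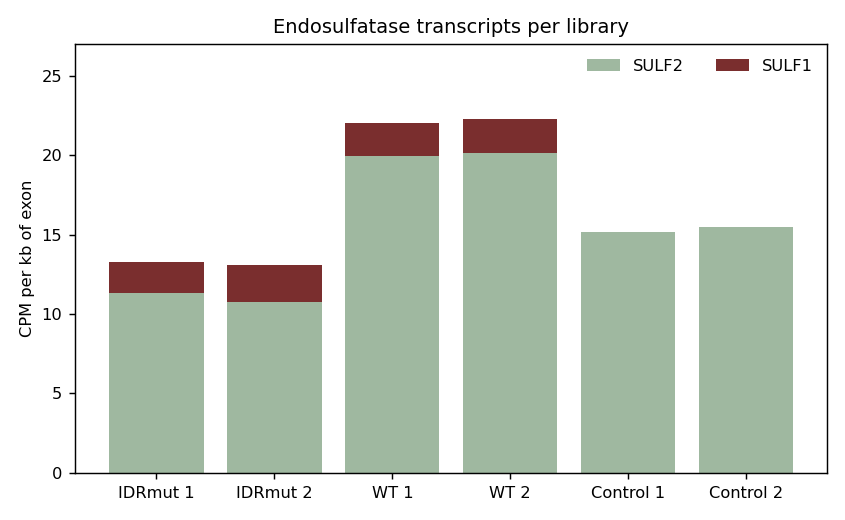
SULF1 and SULF2 transcripts in each library, stacked (y axis, CPM per kb of exon). The SULF1 part is of like height in the 4 ACK1 libraries and missing in Control, while the SULF2 part sets the order of the sums, between 13.1 and 13.3 in IDRmut, 22.1 and 22.3 in WT, and 15.2 and 15.5 in Control.

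Leaving SULF1 aside, 5 of the 9 genes fell in IDRmut compared with Control and none rose, while of the 16591 genes tested 31.6% were called, 15.6% higher and 15.9% lower, at an adjusted p under 0.05 in the quasi-likelihood test of edgeR. In WT compared with Control 1 rose and 4 fell, against 35.0% of all genes called, 17.4% higher and 17.6% lower. Between IDRmut and WT, 1 was higher and 1 lower in IDRmut, against 26.5% of all genes called, 12.3% higher and 14.2% lower. The median log2 fold change of the 9 genes was -0.16 in IDRmut over Control, -0.15 in WT over Control and 0.04 in IDRmut over WT, and that of all genes was 0.00.

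All 3 core proteins fell in both arms. GPC1 is glypican-1, a core protein held on the membrane by a lipid anchor, and it showed the largest fall among the 9 genes in both arms. SDC1 is syndecan-1, a transmembrane core protein of epithelia. The sequences around the starts of GPC1 and SDC1, which were lower in both arms, and of SULF2, which moved apart in them, are printed so that the regions upstream of the moving genes can be compared. They hold 250 bases before and 50 after the start, 5′ to 3′ on the gene's strand, from RefSeq on GRCh38.p14, and capitals mark a GC box (GGGCGG on either strand). The GPC1 window lies at chr2:240435413-240435712 (plus strand), the SDC1 window at chr2:20225426-20225725 (minus strand) and the SULF2 window at chr20:47786578-47786877 (minus strand).
GPC1: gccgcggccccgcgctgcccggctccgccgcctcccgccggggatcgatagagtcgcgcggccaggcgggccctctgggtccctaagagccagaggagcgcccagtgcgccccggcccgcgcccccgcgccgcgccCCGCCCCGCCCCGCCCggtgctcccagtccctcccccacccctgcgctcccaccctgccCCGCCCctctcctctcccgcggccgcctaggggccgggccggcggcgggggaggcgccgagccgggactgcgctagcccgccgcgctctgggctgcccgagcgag
SDC1: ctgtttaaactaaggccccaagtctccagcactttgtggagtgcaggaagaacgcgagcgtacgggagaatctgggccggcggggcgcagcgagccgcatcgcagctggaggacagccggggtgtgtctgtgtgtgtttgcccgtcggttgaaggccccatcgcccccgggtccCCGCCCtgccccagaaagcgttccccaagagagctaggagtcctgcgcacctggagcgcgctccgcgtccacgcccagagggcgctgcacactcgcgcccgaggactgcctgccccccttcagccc
SULF2: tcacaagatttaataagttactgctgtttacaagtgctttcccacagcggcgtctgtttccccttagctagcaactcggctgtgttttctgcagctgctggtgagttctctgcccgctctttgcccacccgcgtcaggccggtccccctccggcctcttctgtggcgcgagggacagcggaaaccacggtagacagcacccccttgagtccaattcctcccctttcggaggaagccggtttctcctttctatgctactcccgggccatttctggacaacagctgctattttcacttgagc
GPC1 holds 4 GC boxes, SDC1 holds 1 and SULF2 holds 0, and 45.0% of the 35116 RefSeq windows of this length hold at least 1. Of the windows not printed, SDC4 holds 8, HS6ST1 7, HS2ST1 4, NDST1 1 and EXT2 0. Whether the number goes with the falls was not tested. GC makes up 83.3% of the GPC1 window, 67.7% of that of SDC1 and 55.7% of that of SULF2, against a median of 58.7% over all windows. The STAT palindrome TTCNNNGAA, searched on both strands, is in none of the 8 windows matched to these 10 genes and in 7.66% of all windows. SULF1 and EXT1 had no window and were not searched. RefSeq lists 4 starts for SULF2, 3 for EXT2 and 2 for SDC1, and the window nearest the 5′ end of the GENCODE gene was taken. The NDST1 window begins at 150497529 on chromosome 5 (plus strand), inside the GENCODE gene, which begins at 150485818. The letters are a description and say nothing of which factors bind.

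GPC1 lies on chromosome 2 from 240435671 to 240468078 (plus strand). It had 376 and 324 CPM in IDRmut, 286 and 296 CPM in WT, and 544 and 552 CPM in Control. Control lay above every ACK1 library, and IDRmut above WT. The log2 fold change was -0.65 ± 0.05 (IDRmut over Control) and -0.91 ± 0.05 (WT over Control), with adjusted p of 4.1e-08 and 3.5e-10 in the quasi-likelihood test of edgeR. GPC1 was also 0.26 ± 0.05 higher in IDRmut than in WT, with an adjusted p of 9.2e-04 in the same edgeR test. The IDRmut libraries differed from each other more than those of the other groups, and without IDRmut replicate 1 the last difference was 0.16 with an adjusted p of 4.7e-04 (range over all alternatives 6.8e-10 to 0.019).

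SDC1 lies on the same chromosome from 20200797 to 20225433 (minus strand). It had 231 and 208 CPM in IDRmut, 212 and 214 CPM in WT, and 306 and 303 CPM in Control. Both arms lay below Control and overlapped each other. SDC1 fell by 0.47 ± 0.04 on the log2 scale in IDRmut and by 0.51 ± 0.04 in WT, with adjusted p of 3.5e-07 and 8.0e-08 in the quasi-likelihood test of edgeR. IDRmut over WT was 0.04, with an interval of -0.05 to 0.14 and an adjusted p of 0.54, and without IDRmut replicate 2 it was 0.12 with an adjusted p of 0.012 (range over all alternatives 0.012 to 0.8). SDC4, syndecan-4, is a core protein of focal adhesions on chromosome 20. It had 94.2 and 97.6 CPM in IDRmut, 91.6 and 93.4 CPM in WT, and 109 and 106 CPM in Control, so that Control was highest without overlap. Its falls were small, -0.16 ± 0.04 in IDRmut and -0.21 ± 0.04 in WT on the log2 scale, with adjusted p of 0.0092 and 9.2e-04 in the same edgeR test. The IDRmut call was lost without Control replicate 1 (-0.14, adjusted p 0.097; range over all alternatives 3.3e-07 to 0.097 by edgeR or DESeq2).

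**Figure D3:**
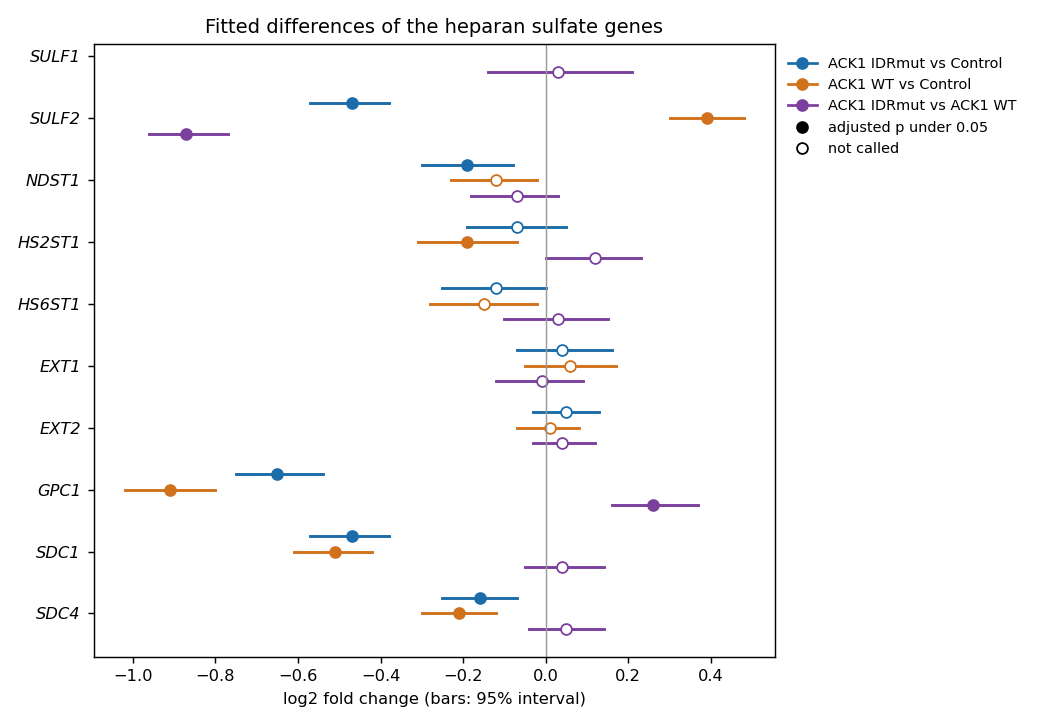
Fitted log2 fold change of each gene (x axis) with its 95% interval, for IDRmut over Control, WT over Control and IDRmut over WT; filled points passed an adjusted p of 0.05. SULF1 has no point against Control. SULF2 lies on opposite sides of 0 in the comparisons with Control, and GPC1 and SDC1 lie left of 0 in both.

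Of the 3 enzymes that sulfate the chain, NDST1 fell in IDRmut and HS2ST1 in WT, and HS6ST1 passed in neither. NDST1, which removes acetyl groups from glucosamine and puts sulfate in their place, had 85.1 and 78.4 CPM in IDRmut, 84.6 and 86.8 CPM in WT, and 90.5 and 96.3 CPM in Control. Control was highest without overlap, and the ACK1 arms overlapped. NDST1 fell by 0.19 ± 0.05 (log2) in IDRmut, with an adjusted p of 0.0081 in the quasi-likelihood test of edgeR. That call was lost without Control replicate 2 (-0.15, adjusted p 0.12; range over all alternatives 8.0e-06 to 0.12). In WT it was -0.12 with an adjusted p of 0.069 and passed under 5 of 14 alternatives.

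HS2ST1, which sulfates the uronic acid of the chain, had 74.8 and 73.8 CPM in IDRmut, 65.5 and 70.8 CPM in WT, and 82.1 and 73.9 CPM in Control. WT was lowest, and the Control libraries differed from each other by more than either arm's did. HS2ST1 fell in WT by 0.19 ± 0.06 on the log2 scale, with an adjusted p of 0.013 in the quasi-likelihood test of edgeR. The call was lost without WT replicate 1 (-0.14, adjusted p 0.15) or Control replicate 1 (-0.11, adjusted p 0.24), in a range over all alternatives of 9.7e-05 to 0.24. IDRmut over Control was -0.07 with an adjusted p of 0.37, and 9.69% of the exon bases of HS2ST1 are overlapped by AC093155.3.

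HS6ST1, which adds the glucosamine O-sulfate that the endosulfatases remove, had 49.0 and 43.6 CPM in IDRmut, 45.3 and 45.5 CPM in WT, and 49.3 and 51.6 CPM in Control. Control was highest in both libraries, by a small margin over the first IDRmut library. The log2 fold change was -0.12 in IDRmut and -0.15 in WT, and the adjusted p of 0.14 and 0.06 in the quasi-likelihood test of edgeR missed the threshold. The WT value passed under 5 of 14 alternatives and the IDRmut value under 3, all with the same sign.

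The chain polymerases had the smallest differences from Control in the fit with TMM scaling. EXT1 had 48.3 CPM in both IDRmut libraries, 49.9 and 47.9 CPM in WT, and 46.8 and 46.9 CPM in Control. EXT2, its partner in the polymerase complex, had 218 and 221 CPM in IDRmut, 214 and 212 CPM in WT, and 214 and 210 CPM in Control. The EXT1 difference was 0.04 in IDRmut and 0.06 in WT on the log2 scale, with adjusted p of 0.6 and 0.43 in the quasi-likelihood test of edgeR and intervals of -0.07 to 0.16 and -0.05 to 0.17. For EXT2 it was 0.05 in IDRmut and 0.01 in WT, with adjusted p of 0.31 and 0.89 and intervals of -0.03 to 0.13 and -0.07 to 0.08. With an offset for GC content and length, which also moved the median of all genes by -0.09, EXT2 in WT turned to -0.12 with an adjusted p of 0.0011, in a range over all alternatives of 0.0011 to 0.98.

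Ranked per kb of exon, SDC1 and GPC1 led in all 3 groups and SULF1 came last. SDC1 averaged 61.0 CPM per kb in IDRmut, 59.2 in WT and 84.6 in Control, and GPC1 averaged 53.8 in IDRmut, 44.7 in WT and 84.1 in Control. Both genes overlapped in Control, and their ranges touched in IDRmut, where SDC1 began at 57.7 and GPC1 ended at 57.8. SULF2 ranked next after SDC1, GPC1, SDC4 and EXT2 in each group. HS2ST1, HS6ST1 and NDST1 followed it, and HS2ST1 overlapped a neighbour in rank in every group. EXT1 came after these, at 5.80 CPM per kb in IDRmut, 5.87 in WT and 5.63 in Control, and SULF1 was last, at 2.15 in IDRmut, 2.09 in WT and 0 in Control.

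The other genes of the pathway were read from 5 lists with 55 genes, of which 46 passed the filter. In IDRmut compared with Control 7 rose and 14 fell, in WT compared with Control 3 rose and 18 fell, and between the arms 13 were higher and 6 lower in IDRmut. The share called was 45.7%, 45.7% and 41.3% in that order, against 31.6%, 35.0% and 26.5% of all genes. Their median log2 fold changes were -0.08, -0.10 and 0.10 in that order, beside 0.00 for all genes.

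Other core proteins moved in both directions. Of 7 tested genes of 10 listed, 4 rose and 2 fell in IDRmut, and 2 rose and 3 fell in WT, so that 85.7% and 71.4% were called, against 31.6% and 35.0% of all genes. GPC4, a second glypican, had 165 and 163 CPM in IDRmut, 145 and 147 CPM in WT, and 101 and 102 CPM in Control. It rose by 0.70 ± 0.04 in IDRmut and 0.52 ± 0.04 in WT on the log2 scale, with adjusted p of 1.0e-09 and 1.8e-08 in the quasi-likelihood test of edgeR, against the direction of GPC1. GPC6 had 5.89 and 6.32 CPM in IDRmut, 6.51 and 7.11 CPM in WT, and 1.42 and 1.61 CPM in Control. Both arms of GPC6 stood apart from Control, by 2.01 ± 0.17 in IDRmut and 2.18 ± 0.16 in WT, with adjusted p of 1.2e-07 and 1.6e-08 in the same edgeR test.

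SDC3, syndecan-3, had 184 and 169 CPM in IDRmut, 177 and 179 CPM in WT, and 238 and 234 CPM in Control, and fell by 0.42 and 0.40 on the log2 scale. HSPG2, perlecan of the basement membrane, had 113 and 91.9 CPM in IDRmut, 55.1 and 57.9 CPM in WT, and 72.5 and 71.2 CPM in Control. Like SULF2 it lay on opposite sides of Control in the arms, but in the reverse order. HSPG2 rose by 0.51 ± 0.07 in IDRmut and fell by 0.34 ± 0.07 in WT, with adjusted p of 3.2e-05 and 0.0016 in the quasi-likelihood test of edgeR, and 11.7% of its exon bases are overlapped by LDLRAD2. AGRN, agrin, was called higher in IDRmut through 1 library, and without IDRmut replicate 1 the log2 fold change of 0.21 became 0.05 with an adjusted p of 0.3 (range over all alternatives 4.8e-09 to 0.3).

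Of the core transcripts, GPC1 held a smaller share and GPC4 a larger one in both arms. Over 13 core genes, the sum was 316 and 295 CPM per kb in IDRmut, 278 and 283 in WT, and 361 and 357 in Control. GPC1 held 18.3% and 16.9% of it in IDRmut, 15.8% and 16.1% in WT, and 23.2% and 23.7% in Control. GPC4 held 10.6% and 11.1% in IDRmut, 10.5% in both WT libraries, and 5.64% and 5.76% in Control. The sum was highest in Control in both libraries, and neither share overlapped between an ACK1 arm and Control.

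**Figure D4:**
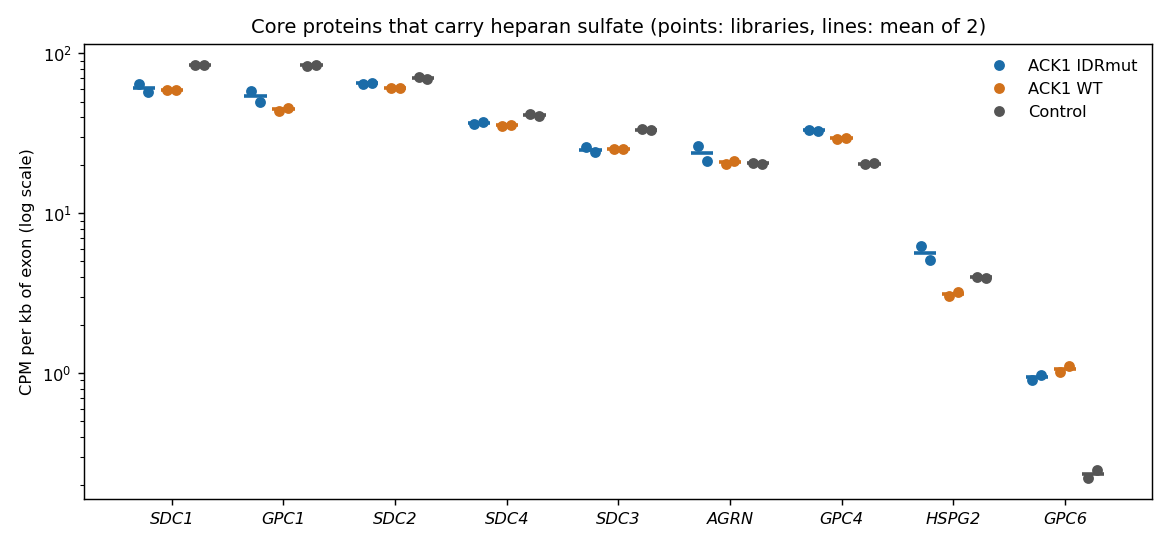
Level of the core proteins that carry heparan sulfate (y axis, CPM per kb of exon, log scale) in IDRmut, WT and Control; points are libraries and lines the mean of 2. GPC1, SDC1 and SDC3 are highest in Control, GPC4 and GPC6 are lowest there, and HSPG2 is highest in IDRmut and lowest in WT.

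Against Control, linker and chain genes, and chain modification genes, were called about as often as all genes when both directions are counted. FAM20B, the kinase that phosphorylates the linker xylose, had 152 and 153 CPM in IDRmut, 153 and 154 CPM in WT, and 189 and 184 CPM in Control, and fell by 0.29 in IDRmut and 0.28 in WT on the log2 scale. Of 8 tested linker and chain genes, 1 rose and 2 fell in IDRmut, and 2 fell in WT, so that 37.5% and 25% were called, against 31.6% and 35.0% of all genes. Of 10 tested chain modification genes, 4 fell in IDRmut and 3 in WT, and none rose. That is 40% and 30% called, all lower, against 15.9% and 17.6% of all genes called lower. Between the arms, 1 chain modification gene was higher and 4 lower in IDRmut, and 2 linker and chain genes were higher and 1 lower. The share called there was 50% and 37.5%, against 26.5% of all genes. HS3ST3A1, which adds a rare glucosamine sulfate, had 80.0 and 68.2 CPM in IDRmut, 95.1 and 97.0 CPM in WT, and 96.6 and 92.9 CPM in Control. It fell by 0.36 ± 0.06 in IDRmut over Control, with an adjusted p of 2.0e-04 in the quasi-likelihood test of edgeR, and was level with Control in WT at 0.02 with an adjusted p of 0.82. NDST4, a relative of NDST1, showed the other pattern, with 7.41 and 6.46 CPM in IDRmut, 3.18 and 3.92 CPM in WT, and 7.66 and 6.67 CPM in Control, and was 0.93 ± 0.14 higher in IDRmut than in WT on the log2 scale with an adjusted p of 1.0e-04 in the same edgeR test.

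Among genes that supply sulfate, PAPSS2, a synthase of the sulfate donor PAPS, had 16.8 and 14.5 CPM in IDRmut, 6.12 and 5.94 CPM in WT, and 7.66 and 7.80 CPM in Control. It rose by 1.02 ± 0.11 in IDRmut over Control on the log2 scale, with an adjusted p of 1.2e-06 in the quasi-likelihood test of edgeR. In WT over Control it was -0.36 ± 0.12 with an adjusted p of 0.027 in that test. DESeq2 did not call that fall (adjusted p 0.15). IDRmut over WT was 1.38 ± 0.10, with an adjusted p of 3.5e-08 by edgeR. Of 9 tested donor genes, 1 rose and 3 fell in IDRmut, and 5 fell in WT, so that 44.4% and 55.6% were called, against 31.6% and 35.0% of all genes. SLC26A2 and SLC35B3 were among those that fell in IDRmut, and BPNT2, SLC35B3 and PAPSS1 among those that fell in WT. Of 12 tested genes of cleavage and breakdown, 1 rose and 3 fell in IDRmut, and 1 rose and 5 fell in WT, which is 33.3% and 50% called. SUMF1, which activates sulfatases including the endosulfatases, had 34.6 and 34.1 CPM in IDRmut, 32.2 CPM in both WT libraries, and 24.6 and 24.4 CPM in Control. It rose by 0.49 ± 0.06 in IDRmut and 0.39 ± 0.06 in WT, with adjusted p of 1.5e-05 and 8.7e-05 in the same edgeR test. Among the genes of this list that fell, the log2 fold change was -0.55 for HPSE and -0.27 for GUSB in IDRmut. In WT it was -0.50 for HGSNAT, -0.38 for GUSB and -0.29 for SUMF2.

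Ligands that bind heparan sulfate and FGF receptors were read from a list of 29 genes, of which 19 were tested. In IDRmut 9 rose and 5 fell, in WT 10 rose and 7 fell, and between the arms 7 were higher and 5 lower in IDRmut. The share called was 73.7%, 89.5% and 63.2% in that order, against 31.6%, 35.0% and 26.5% of all genes. FGF1, a ligand that needs heparan sulfate to signal, had 5.40 and 5.23 CPM in IDRmut, 5.29 and 5.53 CPM in WT, and 0.710 and 0.753 CPM in Control. It rose by 2.85 ± 0.21 in IDRmut and 2.88 ± 0.20 in WT on the log2 scale, with adjusted p of 1.5e-08 and 5.3e-09 in the quasi-likelihood test of edgeR. FGFR1, an FGF receptor, had 55.6 and 52.0 CPM in IDRmut, 43.0 and 41.6 CPM in WT, and 21.9 and 24.6 CPM in Control. It rose by 1.21 ± 0.07 in IDRmut and 0.86 ± 0.07 in WT, with adjusted p of 6.3e-10 and 2.9e-08 in the same edgeR test. FGFRL1, on the same list, had 269 and 245 CPM in IDRmut, 372 and 383 CPM in WT, and 420 and 429 CPM in Control. Its log2 fold change was -0.73 ± 0.04 in IDRmut and -0.17 ± 0.04 in WT, with adjusted p of 1.2e-09 and 0.0044 in that test. The WT call was lost without WT replicate 1 or Control replicate 2. FGFR3 and FGFBP1 also fell in both arms, while FGF2 and FGFR4 rose in both.

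WNT7B, a Wnt ligand, was lower in both arms, at 24.3 and 21.8 CPM in IDRmut, 18.5 and 18.9 CPM in WT, and 40.2 and 44.2 CPM in Control, with log2 fold changes of -0.87 and -1.17. VEGFA, a growth factor of blood vessels, had 102 and 99.5 CPM in IDRmut, 61.0 and 66.1 CPM in WT, and 76.8 and 78.1 CPM in Control. It was thus highest in IDRmut and lowest in WT, with 0.66 ± 0.05 between them on the log2 scale and an adjusted p of 2.5e-08 in the quasi-likelihood test of edgeR.

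**Figure D5:**
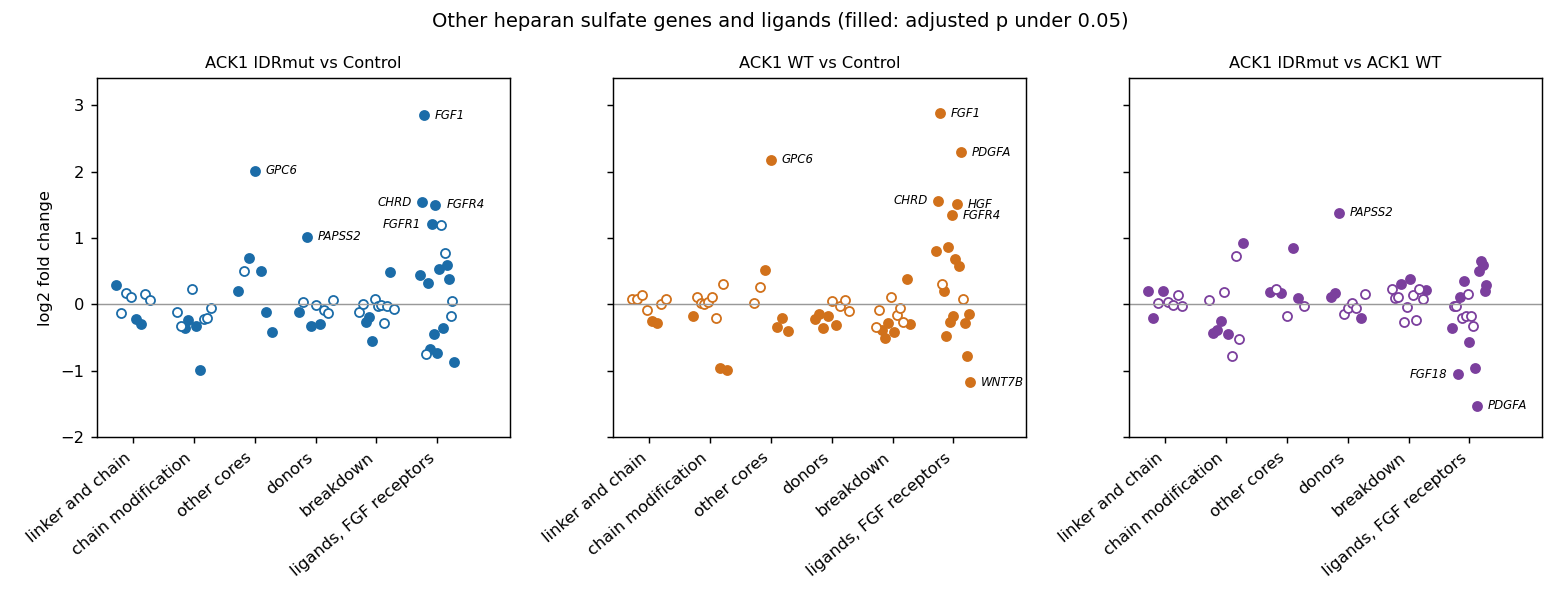
Fitted log2 fold change (y axis) of the other tested heparan sulfate genes and of heparan sulfate-binding ligands and FGF receptors, by list (x axis), in the 3 comparisons; filled points passed an adjusted p of 0.05 and called genes past 1 are named. Most lists lie near 0, and FGF1 and GPC6 are the highest points in IDRmut over Control.

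Genes with levels nearest to those of SULF1 were found by Euclidean distance on log2(CPM + 0.1) over the 6 libraries, among 10751 genes. The 5 nearest were NLRP1, an inflammasome sensor, at a distance of 2.34, FLRT2, a membrane protein, at 2.90, IFI44L, an interferon-induced gene, at 3.03, FKBP10, a collagen chaperone, at 3.46, and OAS1, an antiviral enzyme, at 3.87. FLRT2 also had no Control count, with 7.66 and 6.28 CPM in IDRmut and 7.15 and 8.22 CPM in WT. NLRP1 had 14.7 and 12.9 CPM in IDRmut, 10.3 and 11.2 CPM in WT, and 0.254 and 0 CPM in Control. They were picked by this likeness, so their levels carry no test.

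Within 1 Mb of SULF1 the annotation holds 37 genes, of which 14 had any count and 5 were tested. SLCO5A1, a transporter gene, had 3.44 and 4.59 CPM in IDRmut, 7.79 and 7.25 CPM in WT, and 3.45 and 3.55 CPM in Control. WT stood apart from both other groups. SLCO5A1 rose by 1.09 ± 0.15 in WT over Control on the log2 scale, with an adjusted p of 1.6e-05 in the quasi-likelihood test of edgeR, and differed by 0.20 in IDRmut with an adjusted p of 0.4. TRAM1 rose by 0.12 in WT with an adjusted p of 0.027 in the same edgeR test, a call lost without any 1 of the 4 WT and Control libraries (range over all alternatives 0.0014 to 0.39), and TPM4P3, NCOA2 and LACTB2 passed in no comparison.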

How the data were processed

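RNA was isolated with Trizol, poly-A selected and sequenced as DNA nanoballs, per the labels' protocols. The deposited values are raw counts per gene, made by the authors with HISAT2 2.2.1, SAMtools 1.14 and featureCounts 2.0.1 on GRCh38, per the submitters' processing notes. The sources used here give neither the annotation release nor the strand setting or treatment of multi-mapping reads, so reads of overlapping genes could not be separated. Positions and exon lengths came from GENCODE release 29.

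All 6 libraries entered 1 fit of group means in edgeR 4.0.16 (R 4.3.3) with TMM scaling and filterByExpr (minimum count 10, minimum total 15), leaving 16591 genes. Each of the 3 contrasts had a quasi-likelihood test in edgeR, adjusted over all genes tested (Benjamini-Hochberg) and called at an adjusted p under 0.05. DESeq2 1.42.0 was an alternative. Intervals are at 95%. The procedure was also run on simulated counts with the same spread in every gene and group. The IDRmut libraries here differed from each other more than those of the other groups. The simulated run therefore cannot speak for calls that involve IDRmut.

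The genes and lists were chosen with earlier results of these data known. Named genes are the 10 genes, per list and comparison up to 3 called genes of smallest adjusted p among those averaging 1 CPM or more, the 5 genes most like SULF1, and genes within 1 Mb of it. Of the genes that the rule names, some are given only in counts. An offset for GC content and length was tried as planned, and a centred form of it was added after its result had been seen.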

Additional observations from a re-analysis of the deposited data

How the results depend on the processing

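Across 14 alternatives, 392 log2 fold changes of the 10 genes were recomputed. Of these, 371 kept their side of the threshold, 16 gained a call, 4 lost a call and 1 gained a call with the opposite sign. Changes of sign without a call in either fit are counted among the 371. SULF1 in IDRmut over WT, for example, ranged from -0.07 to 0.13. The value called with the opposite sign is EXT2 in WT over Control, -0.12 with the GC content and length offset. That offset also raised the count of the 9 genes called in WT over Control to 8, and it put the share of calls that were higher at 29.3% in IDRmut over Control and 29.5% in WT over Control, against 49.5% and 49.8% with TMM alone, as it moved the median of all genes to -0.08 and -0.09. It was run first without centring. With its median set to 0 in each library, a form chosen after seeing that result, the shares were 49.8% and 50.2% and EXT2 was not called. DESeq2 called 3290 genes in IDRmut over Control, 3649 in WT over Control and 2519 in IDRmut over WT, against 5237, 5807 and 4396 with edgeR, and 12 of the other heparan sulfate genes in IDRmut over WT against 19. The cause was not tested.

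Leaving out 1 library gave 3451 to 5522 calls in IDRmut over Control (lowest without Control replicate 1), 3974 to 7028 in WT over Control and 2590 to 4761 in IDRmut over WT (lowest without WT replicate 2). The count of called genes among the 9 was 4 to 6 in IDRmut over Control and 4 to 7 in WT over Control, and among the 10 it was 2 to 3 in IDRmut over WT. That of the other heparan sulfate genes was 16 to 23 in each comparison with Control and 11 to 20 in IDRmut over WT (lowest without WT replicate 1). No pairing of the libraries by replicate number was seen, with deviation correlations of -0.0294, -0.0238 and -0.0208 between groups. With 2 libraries per group, these values cannot show that the libraries are unpaired. With the replicate number as a block, 4836, 5440 and 3966 genes were called, and no call of the 10 genes changed. With 2 libraries per group, leaving out 1 library changed calls of NDST1, HS2ST1, HS6ST1, SDC4 and, for IDRmut over WT, SDC1 (0.04, and 0.12 without IDRmut replicate 2).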

Other observations

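Chondroitin and dermatan sulfate are made on the same linker as heparan sulfate by other enzymes, and 15 of 16 such genes listed were tested. In IDRmut compared with Control 5 rose and 7 fell, in WT compared with Control 2 rose and 5 fell, and between the arms 3 were higher and 4 lower in IDRmut, by edgeR's quasi-likelihood test. The share called was 80.0%, 46.7% and 46.7% in that order, against 31.6%, 35.0% and 26.5% of all genes. CHST15, a chondroitin sulfotransferase, had 2.06 and 2.46 CPM in IDRmut, 4.56 and 5.00 CPM in WT, and 0.812 and 0.699 CPM in Control. It rose by 1.57 ± 0.26 in IDRmut and 2.66 ± 0.22 in WT on the log2 scale, with adjusted p of 1.7e-04 and 4.2e-08 by that test with Benjamini-Hochberg adjustment. CHST11, which sulfates chondroitin chains, had 89.5 and 89.2 CPM in IDRmut, 75.2 and 77.1 CPM in WT, and 107 and 108 CPM in Control. The 3 groups did not overlap, and CHST11 fell by 0.27 in IDRmut and 0.50 in WT. CHST3 was the most abundant of those named in CPM, at 396 and 374 CPM in IDRmut, 352 and 350 CPM in WT, and 330 and 334 CPM in Control, and rose by 0.21 ± 0.04 in IDRmut with an adjusted p of 2.9e-04 by the same test.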
